A study of Cardamine hirsuta with 24 samples.

Results

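The genes described here are 100 of 29458 annotated genes of *Cardamine hirsuta*, a crucifer with complex leaves, whose transcripts were at a lower level 4 and 6 h after treatment than at 2 and 8 h. They were chosen on the values themselves. Each count was divided by the total of gene counts of its library and scaled to CPM, the count in a library brought to a fixed common total, and log2(CPM + 1) was averaged over the 6 libraries of each time, Dex and Mock together. The lower of the 2 h and 8 h averages minus the higher of the 4 h and 6 h averages is called the dip index below. Genes entered the ranking with a mean of at least 2 CPM and a Mock difference between 8 h and 2 h of less than 1 on the log2 scale, and 16326 genes met both limits. The 100 highest were taken, leaving out 7 genes named in the rule, of which 4 met the limits. Because the ranking used the differences between times, those differences are described with no test.

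All 24 libraries came from 12 d old seedlings of the Oxford genotype of *C. hirsuta* that carried *RCOp::LhG4:GR; Op::ChCUC1:Venus*. In this line the *RCO* promoter, which acts in small areas of the margin of developing leaves, drives the steroid-dependent activator LhG4:GR, so that dexamethasone switches on a Venus fusion of the boundary transcription factor ChCUC1 in those areas. Dex pools were kept in liquid medium with 10 μM dexamethasone and Mock pools with 0.1% DMSO, and shoot apices with young leaves were taken at 2, 4, 6 and 8 h, with 3 pools of seedlings for each of the 8 groups. Roots, cotyledons and mature leaves had been removed. Mock plants carried the same transgene, and no library from before treatment was analysed here. Hours in the medium and time of day cannot be told apart in these groups.

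Several of the named dipping genes belong to pathways of specialised metabolism in crucifers. Flavonoids and anthocyanins are built from phenylalanine by the general phenylpropanoid enzymes and then by chalcone synthase and the enzymes after it, and are decorated by sugar and acyl transferases. Glucosinolates are sulfur-rich defence compounds of this plant family whose synthesis is switched on by R2R3 MYB proteins, with separate MYB groups for the aliphatic and the indole branch. Jasmonate and gibberellin levels are set in part by enzymes that inactivate the hormones. Roles given here are known from *Arabidopsis thaliana*, with which 48 of the 100 genes were paired by identifier in the study's tables, 25 of them with a symbol. Of the 16326 genes meeting the limits 13.7% had such a pair. For 31 of the 48 the pair stood only in tables of genes called different between Dex and Mock in these same libraries, so a name was more likely for a gene with a treatment difference. No sequence or position of these genes was used here.

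The libraries held 12850309 to 22956929 gene counts, the fewest in Dex replicate 2 at 4 h. Reads outside annotated genes were 5.65 to 15.8% of the reads counted, highest in Mock replicate 3 at 4 h, where the 10 most abundant genes also took 12.7% of counts against 5.48 to 10.7% elsewhere. For *ChCUC1* itself (CARHR090150) the log2 fold change of Dex against Mock was 1.70 ± 0.19 (edgeR, adjusted p = 5.45e-04), at 6.25 to 11.4 CPM in Dex and 0.643 to 4.62 CPM in Mock, with transgene and endogenous reads counted as one. The shoot apex markers *ANT* and *KNAT1* were at 15.5 to 29.6 CPM and 7.61 to 29.5 CPM over the 24 libraries, with no library at 0. The summed level of 7 mature leaf genes had medians of 29178, 26242, 20969 and 13624 CPM at 2, 4, 6 and 8 h, a steady decrease with no return at 8 h. Root hair genes summed to a median of 19.3 CPM at 2 h (0.359 to 111) and to 0.314, 0.539 and 0.439 CPM at the later times. Seed genes summed to medians of 9.34, 1.28, 7.11 and 1.22 CPM. None of the 100 genes was on these marker lists, and the part of these other tissues in the dip was not tested.

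The dip was shallow. The index had a median of 0.44 over the 100 genes, which is 1.36-fold, and ran from 0.36 to 0.90, or from 1.28-fold to 1.86-fold. Over the 16326 genes its median was -0.13, and 4447 of them had an index above 0. The average was lowest at 4 h in 81 of the 100 genes and at 6 h in 19. The highest average was at 2 h in 78 genes and at 8 h in 22, so that most had not regained their first level by 8 h. Over the 16326 genes the average was lowest at 4 h in 5661 and at 6 h in 2002, and highest at 2 h in 5352 and at 8 h in 7927. For the 100 genes the rule itself places the lowest average at 4 or 6 h. In Mock alone the 8 h value was below the 2 h value in 80 of the 100 genes and in 7289 of the 16326. The 100 genes were of low to middle abundance, with mean levels from 2.11 to 490 CPM and a median of 9.56 CPM, against a median of 20.6 CPM over the 16326 genes.

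The groups of libraries overlapped for nearly all of these genes. In 1 of the 100 genes, CARHR006260, every one of the 12 libraries of 4 and 6 h was below every one of the 12 libraries of 2 and 8 h, and 2 of the 16326 genes (0.0123%) had that separation. CARHR006260, which has no *Arabidopsis* pair here and is named because of this separation, was at 27.8, 34.3 and 36.2 CPM (lowest, median and highest of 6 libraries) at 2 h. It was at 15.2, 19.4 and 22.6 CPM at 4 h, at 16.0, 21.8 and 24.9 CPM at 6 h, and at 27.1, 30.8 and 41.7 CPM at 8 h. Its index was 0.36 in Dex and 0.51 in Mock.

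**Figure D1:**
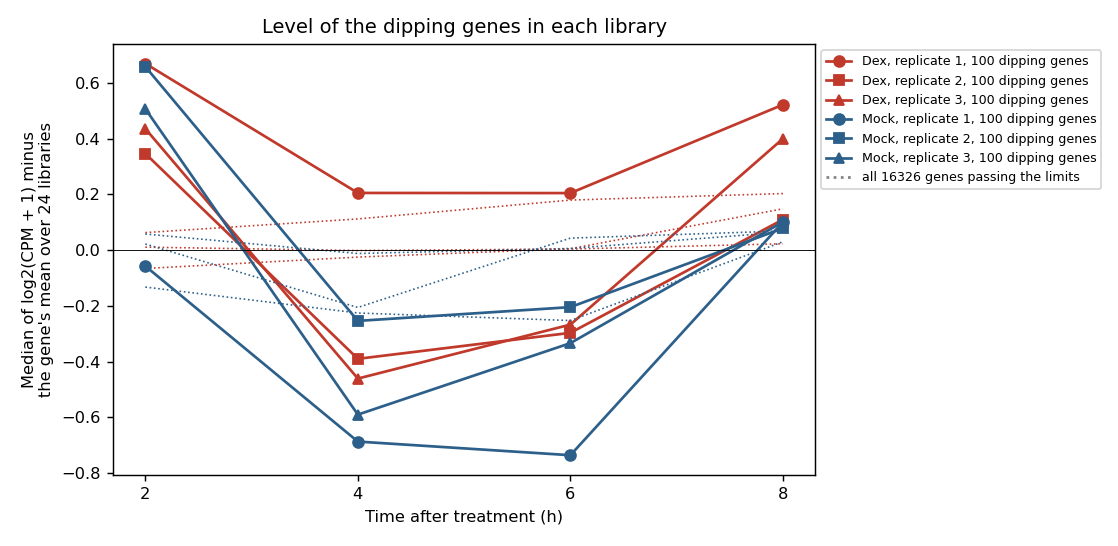
Median over the 100 dipping genes of log2(CPM + 1), each gene centred on its mean of 24 libraries, against hours after treatment for Dex (red) and Mock (blue), with 1 line for each replicate number, and dotted lines for the median of all 16326 genes that met the limits. The solid lines are lower at 4 and 6 h than at 2 and 8 h in each treatment, and replicate 1 stands apart, with Dex replicate 1 at 0.21 and Mock replicate 1 at -0.69 at 4 h.

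Joining libraries of 1 treatment and 1 replicate number gives 6 series of 4 times, although the labels do not say that such libraries share plants or days. The index was above 0 in 57, 81 and 85 of the 100 genes in Dex replicates 1, 2 and 3, and in 73, 72 and 78 genes in Mock replicates 1, 2 and 3. Over the 16326 genes the same shares were 16.7, 12.9 and 25.6% in Dex and 37.4, 21.7 and 24.02% in Mock. All 6 series had an index above 0 in 13 genes, and at least 5 of 6 in 56. The mean of 2 and 8 h minus the mean of 4 and 6 h was above 0 in all 100 genes in Dex and in all 100 in Mock, with medians of 0.64 and 0.76 on the log2 scale. The index itself was above 0 in 93 genes in Dex and in 98 in Mock. These shares follow in part from the choice of genes.

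Replicate 1 stood apart in both treatments and in opposite directions. The highest of the 6 libraries of a time was from replicate 1 in 59, 78, 81 and 74 of the genes at 2, 4, 6 and 8 h, mostly from Dex replicate 1 (49, 65, 60 and 53 genes). The lowest was most often Mock replicate 1 at 2, 4 and 6 h (59, 41 and 53 genes). At 4 and 6 h the centred median of the 100 genes was 0.21 and 0.21 in Dex replicate 1 and -0.69 and -0.74 in Mock replicate 1. The other 4 libraries of 4 h lay between -0.59 and -0.25, and those of 6 h between -0.33 and -0.20.

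**Figure D2:**
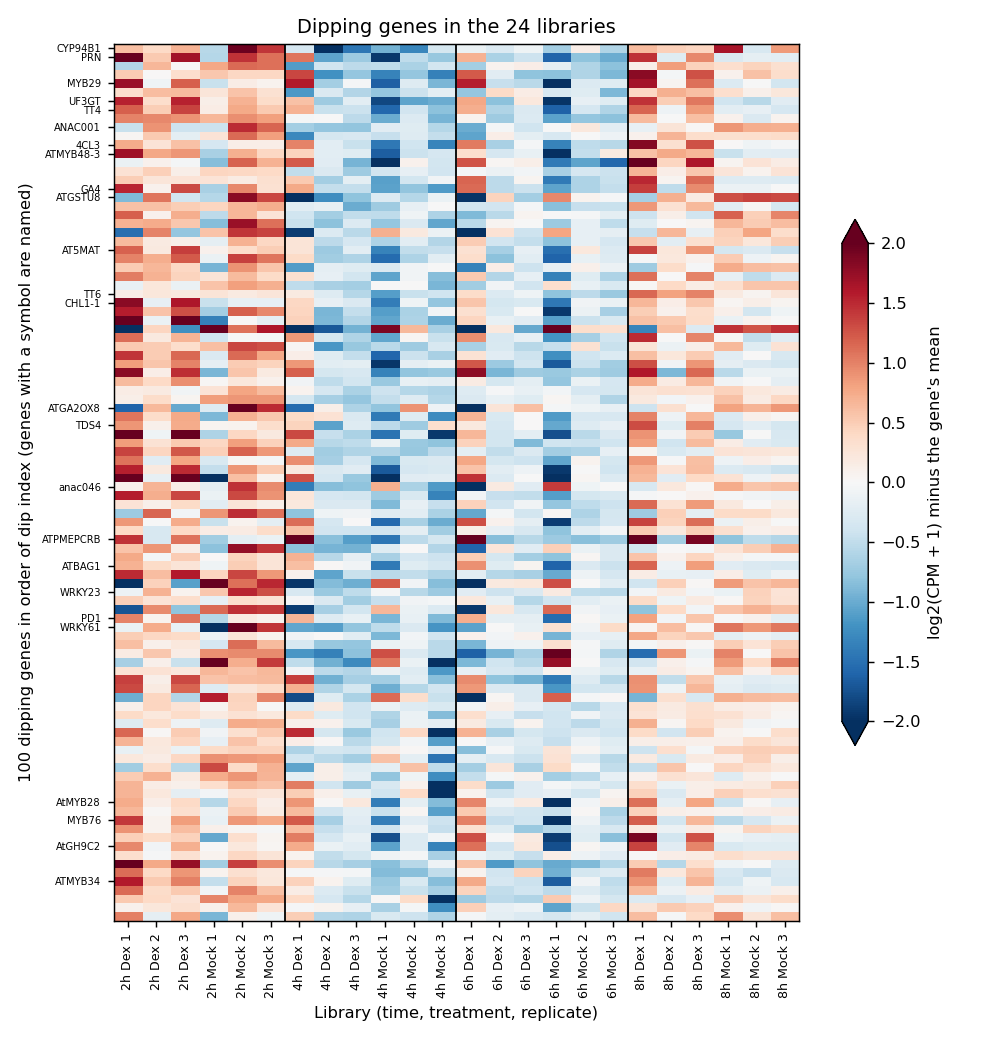
Colour gives log2(CPM + 1) minus the gene's mean over 24 libraries for the 100 dipping genes (rows, in order of dip index, named where a symbol was paired) in the 24 libraries (columns, by time, treatment and replicate). Columns of 4 and 6 h are mostly blue and those of 2 and 8 h mostly red, with Dex replicate 1 red and Mock replicate 1 blue at 4 and 6 h for many genes, and the opposite for others.

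Enzymes of the flavonoid pathway were a main part of the named genes. Of 21 listed flavonoid genes 12 were paired. Of these 12, 9 met the limits and 5 were among the 100: *TT4* (chalcone synthase, the first committed enzyme), *TT6* (flavanone 3-hydroxylase), *TDS4* (leucoanthocyanidin dioxygenase), *UF3GT* (an anthocyanin glycosyltransferase) and *AT5MAT* (an anthocyanin malonyltransferase). The median index of the 9 was 0.46, against -0.13 over the 16326 genes, from which the 100 were taken. Listed genes counted only with a pair, and pairs came in part from tables of treatment differences in these libraries. All genes are thus not a like background for the index of the 9. The remaining members of the 9 had an index of 0.25 for *CYP75B1* (flavonoid 3'-hydroxylase), 0.18 for the regulator *GL3*, -0.32 for the regulator *TT8* and -0.44 for *UGT78D2* (a flavonoid glucosyltransferase). *DFR* (dihydroflavonol reductase) and *TT19* (a glutathione transferase for anthocyanin transport) had an index of 0.66 and 0.57 but were kept out by the limit on the Mock difference, with 8 h minus 2 h at -1.70 and -1.47 on the log2 scale in Mock. *MYB12*, kept out by its mean level of 1.05 CPM, had an index of -0.0029.

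*TT4* was at 35.5, 50.3 and 82.8 CPM (lowest, median and highest) at 2 h. It was at 10.1, 23.2 and 51.9 CPM at 4 h, at 9.65, 22.7 and 53.3 CPM at 6 h, and at 25.03, 29.0 and 72.6 CPM at 8 h. The lowest library was Mock replicate 1 at 2, 4 and 6 h and the highest was Dex replicate 1 from 4 h on, so that the ranges of the 4 times overlapped. The index of *TT4* was 0.70 in Dex and 0.62 in Mock.

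*TT6* had the tightest 2 h values of the listed enzymes, 23.1, 24.3 and 25.1 CPM. It was at 9.19, 15.4 and 23.9 CPM at 4 h and at 11.5, 15.7 and 27.2 CPM at 6 h, and at 21.7, 30.9 and 47.8 CPM at 8 h. In Dex its 8 h libraries, at 37.1 to 47.8 CPM, were above those of 2 h, at 23.1 to 24.6 CPM, and in Mock the 8 h libraries were at 21.7 to 24.8 CPM and those of 2 h at 23.9 to 25.1 CPM. *UF3GT* had medians of 5.26, 1.39, 2.74 and 3.86 CPM at 2, 4, 6 and 8 h, with single libraries down to 0.107 CPM (Mock replicate 1 at 6 h) and up to 11.5 CPM (Dex replicate 3 at 2 h). Values below 1 CPM rest on few reads, and differences among them are damped by the pseudocount.

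Enzymes on either side of the listed steps were also among the 100, and those without a symbol are named after their values were seen. *4CL3*, a 4-coumarate:CoA ligase that feeds flavonoid synthesis, had an index of 0.60, and *PD1*, an arogenate dehydratase of phenylalanine synthesis, 0.41. CARHR207960, paired with a chalcone isomerase-like gene, had 0.59, and CARHR005520, paired with a flavonol rhamnosyltransferase, 0.50. With *TT4*, *TT6*, *TDS4*, *UF3GT* and *AT5MAT* these make 9 enzymes of phenylalanine, phenylpropanoid and flavonoid metabolism with an index from 0.41 to 0.67, of which 8 were lowest at 4 h and 3 were higher at 8 h than at 2 h. Without the single library of Mock replicate 1 at 6 h the indices of the 9 ran from 0.15 for *PD1* to 0.45 for *TT6*, with *UF3GT* at 0.35, *AT5MAT* at 0.34, CARHR207960 at 0.37, *4CL3* at 0.40 and *TT4* at 0.43. In Dex and Mock alone the index was 0.62 and -0.0015 for *TDS4*, 1.00 and 0.15 for *AT5MAT*, and 0.94 and 0.39 for *UF3GT*. It was 0.18 and 0.80 for *TT6*, 0.42 and 0.77 for *4CL3*, and 0.32 and 0.44 for *PD1*. CARHR207960 had 0.11 and 0.25, and CARHR005520 0.54 and 0.46. With medians in place of means the indices of the 9 ran from -0.013 for *TDS4* to 0.60 for *TT6*. CARHR189800, paired with *RUP2*, a repressor of UV-B signalling, had an index of 0.48.

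**Figure D3:**
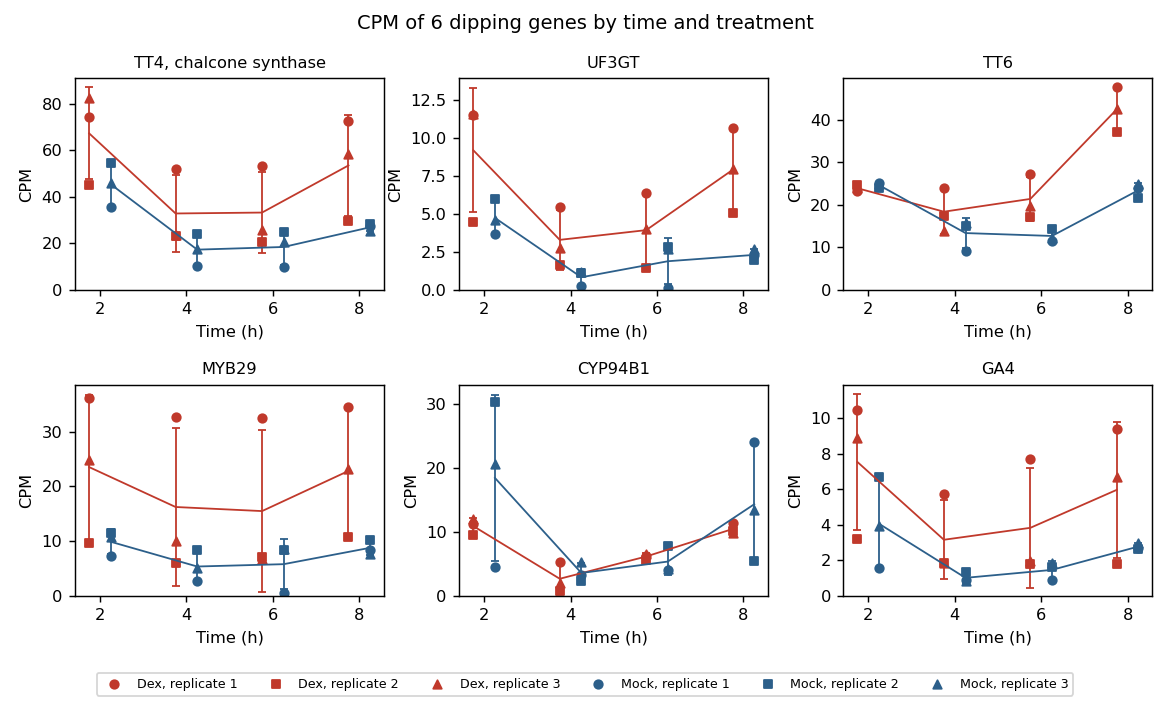
CPM in each library (points) with the mean and SD of 3 replicates (lines and bars) against hours after treatment for *TT4*, *UF3GT*, *TT6*, *MYB29*, *CYP94B1* and *GA4* in Dex (red) and Mock (blue). In each panel the means at 4 and 6 h are below those at 2 and 8 h in Mock, while the SD bars of Dex are wide for *MYB29* and *GA4*, where Dex replicate 1 was at 32.7 and 5.72 CPM at 4 h.

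Glucosinolate genes entered the group through their regulators. Of 16 paired glucosinolate genes 11 met the limits and 4 were among the 100, all of them MYB genes: *MYB29*, *AtMYB28* and *MYB76* of the aliphatic branch and *ATMYB34* of the indole branch. Their indices were 0.68, 0.37, 0.37 and 0.36, and without the single library of Mock replicate 1 at 6 h they were 0.35, -0.031, 0.18 and 0.21. In Dex alone they were 0.65, 0.055, 0.39 and 0.35, and in Mock alone 0.72, 0.52, 0.34 and 0.37. The 7 other genes ran from -0.41 for *CYP79B2* and -0.35 for *CYP79B3*, which start indole glucosinolate synthesis, to 0.25 for CARHR254200 (paired with the bile acid transporter-like gene *BAT5*) and 0.25 for *FMO GS-OX1*, which oxidises aliphatic side chains. The index of *CYP83A1*, an enzyme of the aliphatic core pathway, was 0.051. The paired glucosinolate genes outside the limits all had an index below 0. It was -0.073 for *MAM1*, -0.012 for *MAM3*, -0.064 for *CYP83B1*, -0.107 for *BCAT4* and -0.715 for *ESM1*. *MYB29* and *MYB76* are close relatives, and reads that fit both may have been lost or divided in counting.

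*MYB29* was at 7.28, 11.2 and 36.2 CPM (lowest, median and highest) at 2 h, and at 2.64, 7.23 and 32.7 CPM at 4 h. It was at 0.483, 7.75 and 32.5 CPM at 6 h and at 7.69, 10.5 and 34.6 CPM at 8 h. The highest library was Dex replicate 1 at each time, at nearly one level, and the lowest was Mock replicate 1 at 2, 4 and 6 h. *AtMYB28*, the most abundant of these regulators, had medians of 177, 138, 150 and 140 CPM at 2, 4, 6 and 8 h, so its median library did not rise again between 6 and 8 h although its mean of log2 values did. For *ATMYB34* the medians were 6.77, 3.59, 3.26 and 3.95 CPM.

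Enzymes of jasmonate and gibberellin turnover formed another named group of 4. *CYP94B1*, which hydroxylates and so inactivates jasmonoyl-isoleucine, had the highest index of all, 0.90. It was at 4.46, 11.6 and 30.3 CPM at 2 h, at 0.700, 2.71 and 5.32 CPM at 4 h, at 3.97, 5.93 and 7.80 CPM at 6 h, and at 5.41, 10.8 and 24.05 CPM at 8 h. Here the highest and the lowest library of 2 h were both Mock, replicates 2 and 1. CARHR207680, paired with a jasmonate oxidase and named after its values were seen, had medians of 247, 76.1, 150 and 201 CPM. Its index was 0.42 over both treatments, -0.35 in Dex alone and 0.33 in Mock alone. None of the 6 genes of a jasmonate list that met the limits was among the 100, and their median index was -0.064.

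*GA4*, the 3-oxidase that makes active gibberellin, had medians of 5.31, 1.59, 1.82 and 2.83 CPM at 2, 4, 6 and 8 h. *ATGA2OX8*, a 2-oxidase that inactivates gibberellin precursors, had medians of 8.59, 5.32, 6.63 and 10.4 CPM. These were 2 of the 4 paired gibberellin genes that met the limits, and the median index of the 4 was 0.085. The index of *ATGA2OX8* came from Mock, where it was 0.78, against -0.26 in Dex.

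Among the genes with a pair, 6 transcription factors outside the glucosinolate pathway are described here. For the 52 genes without a pair no role is known here. *ANAC001*, a NAC domain transcription factor, had an index of 0.62 and medians of 8.91, 3.90, 5.98 and 9.71 CPM. *ATMYB48-3* had 0.60, *anac046*, a NAC protein that promotes chlorophyll breakdown in senescence, 0.44, and *WRKY23*, an auxin-responsive WRKY factor, 0.41. *WRKY61* had 0.41 and CARHR240790, paired with an ERF gene and named after its values were seen, 0.37. Without the single library of Mock replicate 1 at 6 h *ATMYB48-3* had 0.28, CARHR240790 0.037 and *anac046* 0.75. At 4 h *WRKY23* spanned only 8.48 to 14.6 CPM, against 13.8 to 44.9 CPM at 2 h.

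The other named genes had varied roles. *PRN*, which encodes a pirin, came second by index with 0.88 and had medians of 8.77, 1.40, 1.43 and 2.51 CPM, its single libraries running from 0.0528 CPM to 14.9 CPM. *CHL1-1*, the dual-affinity nitrate transporter, had an index of 0.54 and medians of 44.6, 42.8, 42.9 and 54.3 CPM. At 2 h Dex replicates 1 and 3 were at 176 and 156 CPM and the other 4 libraries at 36.4 to 44.6 CPM, and without the single library of Mock replicate 1 at 6 h its index was 0.31. *ATGSTU8*, a tau class glutathione transferase, had medians of 33.4, 14.0, 23.4 and 47.9 CPM. *ATBAG1*, a co-chaperone of the BAG family, had an index of 0.42, *ATPMEPCRB*, a pectin methylesterase, 0.43, and *AtGH9C2*, an endoglucanase, 0.37. Without that library *ATBAG1* had 0.18 and *AtGH9C2* 0.043.

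Of the 10 genes with the highest index, CARHR098700 and CARHR100010 had no pair. CARHR098700 had a median of 23.4 CPM and a highest library of 26.6 CPM at 2 h, and was at 7.02, 11.5 and 14.4 CPM at 4 h, at 8.49, 13.6 and 22.1 CPM at 6 h, and at 17.9, 22.1 and 28.0 CPM at 8 h. In CARHR100010 the 2 h libraries, from 23.7 to 30.2 CPM, lay above all 6 libraries of 4 h (6.87 to 14.6 CPM) and all of 6 h (6.49 to 15.5 CPM), and its 8 h median was 15.5 CPM. CARHR107160, paired with a glycosyltransferase gene, had medians of 20.3, 8.09, 8.90 and 16.0 CPM, and CARHR090740, paired with an alpha/beta hydrolase gene, 8.05, 2.47, 3.19 and 8.45 CPM. The 52 genes without a pair had a median index of 0.43 and the 48 with one 0.49. At the rank limit the last gene taken, CARHR226140, had an index of 0.357859 and the first left out, CARHR225560, 0.357814, so the 100 genes are a ranked slice with no gap below them. Ranked on Dex libraries alone 56 of the 100 were taken again, on Mock libraries alone 46, and without the single library of Mock replicate 1 at 6 h 55.

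Besides flavonoid, glucosinolate and gibberellin genes, 17 other gene lists had no member among the 100. Median indices were -0.26 over the 7 heat shock genes that met the limits, -0.35 over 6 photosynthesis genes, -0.27 over 10 cell cycle and DNA replication genes, and 0.052 over 7 cytokinin genes. Only 1 of 29 circadian clock genes was paired and it did not meet the limits, so the clock could not be described through its own genes.

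Dex was compared with Mock next, averaged over the 4 times. The ranking used means over both treatments and not this difference, but the same libraries entered both. Mock replicate 1 was the lowest library in 41 genes at 4 h and in 53 at 6 h. Low values there raise the index and also Dex minus Mock, so the counts below are not independent of the choice of genes. How far this raised them was not tested. Of the 100 genes 44 were called at an adjusted p under 0.05 and a fold over 1.5 (edgeR, all genes tested), 32 higher and 12 lower in Dex. Over all 21689 genes tested 13.7% were called, 4.76% higher and 8.89% lower. The median log2 fold change of the 100 genes was 0.21, against 0.042 over all genes, and 64 of the 100 were above 0. Of the 48 genes with a pair 26 were called higher and 8 lower, and of the 52 without a pair 6 and 4. As pairs came largely from tables of treatment differences in these libraries, the counts for the named genes are not independent of them.

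These calls depended on the replicates kept. Without replicate 1 of both treatments 2 of the 100 genes were called (149 of all genes), CARHR242260 and CARHR042840, and without replicate 3 the count was 0 by edgeR, over all genes as well (49 of the 100 and 8601 of all genes at an unadjusted p under 0.05). DESeq2 called 9, 54 and 34 of the 100 without replicates 1, 2 and 3 (432, 5050 and 2976 of all genes). Without replicate 2 edgeR called 51 (4809 of all genes). The median of Dex minus Mock over the 100 genes was 0.73, -0.16 and 0.20 in replicates 1, 2 and 3, where 69, 29 and 66 genes were above 0. Over the 16326 genes these medians were 0.32, -0.023 and 0.063. All 32 genes called higher were higher in Dex in replicates 1 and 3, and 14 of them also in replicate 2. Of the 12 called lower, 11 were lower in all 3. These differences are between libraries of 1 number, a matching that the labels do not give, so they do not measure agreement of pairs. Whether a technical property of replicate 1 has a part in this was not tested.

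**Figure D4:**
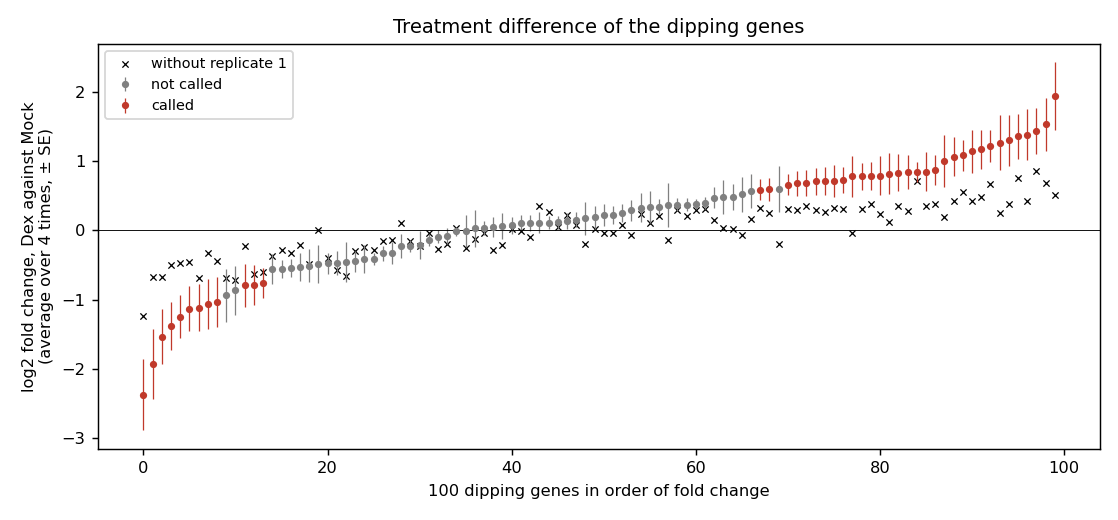
The log2 fold change of Dex against Mock, averaged over 4 times, with its SE for each of the 100 dipping genes in order of size (red, called; grey, not called), and the same value without replicate 1 (crosses). The 44 called genes run from -2.37 to 1.94, and without replicate 1 the medians shrink from 0.84 to 0.35 for those called higher and from -1.12 to -0.55 for those called lower.

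By role, of the 9 enzymes of phenylalanine, phenylpropanoid and flavonoid metabolism 7 were called higher in Dex and none lower by edgeR, beside 4.76% of all genes called higher, with log2 fold changes of 0.40 to 1.36 over the 9. *UF3GT* was at 1.42 to 11.5 CPM in Dex with a median of 5.26 CPM and at 0.107 to 5.97 CPM in Mock with a median of 2.45 CPM, a log2 fold change of 1.36 ± 0.32 (adjusted p = 0.00686). *4CL3* was higher by 1.08 ± 0.22 (adjusted p = 0.005) and *TT4* by 0.73 ± 0.18 (adjusted p = 0.0085). *TT6* differed by 0.40 ± 0.087 (adjusted p = 0.00587), under the fold limit, and *TDS4* by 0.57 ± 0.25 (adjusted p = 0.0753). The ranges of Dex and Mock overlapped for each of these genes. Without replicate 1 none of the 9 was called by edgeR, and *UF3GT* then differed by 0.76. Of the 12 paired flavonoid genes, from 21 listed, 9 were called higher and 0 lower, and 3 of these 9 (*TT4*, *UF3GT* and *AT5MAT*) were among the 100. As pairs came in part from tables of treatment differences in these libraries, all genes are not a like background for these counts.

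The 4 glucosinolate regulators were all called higher in Dex, by 1.30 ± 0.37 for *MYB29* (adjusted p = 0.0128), 0.87 ± 0.22 for *ATMYB34* (adjusted p = 0.00813), 0.78 ± 0.30 for *MYB76* (adjusted p = 0.0471) and 0.71 ± 0.20 for *AtMYB28* (adjusted p = 0.0128). Of the 16 paired glucosinolate genes, from 29 listed, 11 were called higher and 0 lower, beside 4.76% of all genes called higher and 8.89% lower. Here too pairs came in part from tables of treatment differences in these libraries, so all genes are not a like background. Without replicate 1 none of the 4 was called, and *MYB76* was at -0.035. Dex values of *MYB29* ran from 6.07 to 36.2 CPM and Mock values from 0.483 to 11.5 CPM.

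The hormone enzymes went in both directions. *GA4* was higher in Dex by 1.14 ± 0.31 (adjusted p = 0.0104), while *ATGA2OX8* differed by -0.94 ± 0.39 (adjusted p = 0.0625). CARHR207680, the jasmonate oxidase gene, was lower by 1.38 ± 0.35 on the log2 scale (adjusted p = 0.00888), at 31.8 to 194 CPM in Dex and 76.6 to 566 CPM in Mock. *CYP94B1* differed by -0.46 ± 0.29 (adjusted p = 0.221). Of the 9 paired gibberellin genes, from 15 listed, 6 were called higher and 2 lower (median log2 fold change 0.69). Among the 12 paired jasmonate genes, from 27 listed, 1 was called higher and 6 lower (median -1.09). Over all genes 4.76% were called higher and 8.89% lower. Listed genes counted only with a pair. For 1846 of the 4021 genes with a pair it stood only in tables of treatment differences from these libraries. A high share of calls is thus partly built into the lists, and all genes are not a like background.

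Among the remaining named genes *PRN* was higher by 1.27 ± 0.40 (adjusted p = 0.0212), *ATMYB48-3* by 0.83 ± 0.26 (adjusted p = 0.0211) and *CHL1-1* by 0.68 ± 0.19 (adjusted p = 0.0115). The log2 fold change of *CHL1-1* was 1.55 at 2 h, where Dex replicates 1 and 3 stood apart from the other libraries, and 0.53, 0.34 and 0.32 at 4, 6 and 8 h. The cell wall genes *ATPMEPCRB* and *AtGH9C2* were higher by 1.94 ± 0.49 (adjusted p = 0.00865) and 0.79 ± 0.21 (adjusted p = 0.00943), and so was *PD1* by 0.59 ± 0.17 (adjusted p = 0.0127). *ATGSTU8*, *anac046* and *ANAC001* were lower, with log2 fold changes of -1.12 ± 0.34, -1.06 ± 0.36 and -0.76 ± 0.21 (adjusted p = 0.0181, 0.0292 and 0.013). *WRKY23* and *WRKY61* were not called, at -0.45 ± 0.15 and -0.86 ± 0.35.

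The smallest adjusted p belonged to CARHR023660, paired with an invertase and pectin methylesterase inhibitor family gene, with 0.85 ± 0.14, and to CARHR042840, paired with an alpha/beta hydrolase gene, with 1.22 ± 0.23 (both adjusted p = 0.00464). CARHR242260 had the largest difference of the 100 genes, -2.37 ± 0.52 (adjusted p = 0.00581). It was at 0.249 to 24.7 CPM in Dex with a median of 6.75 CPM and at 9.73 to 82.8 CPM in Mock with a median of 42.1 CPM, its lowest library being Dex replicate 1 at each time. Among the 10 smallest adjusted p were also CARHR168420, paired with a dirigent protein gene (1.44 ± 0.34), *ATBAG1* (0.66 ± 0.16), CARHR174060, paired with another hydrolase gene (1.17 ± 0.28), and the unpaired CARHR292800 (0.59 ± 0.15) and CARHR172600 (1.53 ± 0.38). At 2 h CARHR168420 was at 25.3 and 22.9 CPM in Dex replicates 1 and 3 and at 0.359 to 2.49 CPM in the other 4 libraries, and its log2 fold change was 3.35 at 2 h and 0.97, 0.82 and 0.61 at the later times. CARHR172600 was at 50.8 and 31.1 CPM in those Dex libraries of 2 h and at 2.62 to 6.41 CPM in the other 4. Root hair genes summed to 111 and 79.6 CPM in Dex replicates 1 and 3 at 2 h, against 10.8 CPM in Dex replicate 2 and 0.359 to 24.4 CPM in Mock, and seed genes to 44.5 and 47.3 CPM, against 13.7 CPM and 0.410 to 4.97 CPM. Their part in the Dex differences of *CHL1-1*, CARHR168420 and CARHR172600 was not tested.

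At single times none of the 100 genes was called by edgeR. At 2 h 0.00461% of all genes were called and at 4, 6 and 8 h 0%. At an unadjusted p under 0.05 there were 27, 19, 19 and 27 of the 100 genes at 2, 4, 6 and 8 h, and 3047, 4784, 2183 and 3433 of all genes. DESeq2 called 3, 0, 0 and 4 of the 100, and 114, 132, 2 and 134 of all genes. At 8 h *TT6* was at 37.1 to 47.8 CPM in Dex and 21.7 to 24.8 CPM in Mock, groups that did not overlap, with a log2 fold change of 0.78 ± 0.17 (edgeR, adjusted p = 0.192). At 2 h its groups overlapped.

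Whether the dip itself differed between the treatments was tested as the mean of 2 and 8 h minus the mean of 4 and 6 h in Dex against the same in Mock. The ranking used time differences of the same libraries, averaged over both treatments, and a limit on Mock 8 h minus 2 h. A gene ranked through 1 library, such as Mock replicate 1 at 6 h, departs in this test as well. Its results are thus not independent of the choice of genes. None of the 100 genes, and 0% of all genes, was called by edgeR, and none by DESeq2. At an unadjusted p under 0.05 there were 2 of the 100 and 446 of all genes. These 2, named after their values were seen, were CARHR189800, the *RUP2* gene (0.60 ± 0.22, unadjusted p = 0.0138), and the unpaired CARHR121100 (2.32 ± 1.00, unadjusted p = 0.0312), both deeper in Dex (adjusted p = 1 for both). The median difference over the 100 genes was -0.052 on the log2 scale, with a median SE of 0.41, beside median dips of 0.64 in Dex and 0.76 in Mock.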

How the data were processed

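Poly(A) RNA was sequenced from 24 libraries. The authors mapped reads with STAR 2.4.2a and counted them per gene with HTSeq 0.5.4p1, as the submitters' processing notes list. The deposited values are raw counts. No genome build, annotation or strand setting was given in the sources used. The HTSeq summary lines (5.65 to 15.8% of reads without a feature) were left out of totals.

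Genes were ranked on log2(CPM + 1) as described. The members and lists were chosen with earlier results of these data known. Dex was compared with Mock by edgeR 4.0.16 (R 4.3.3), with TMM scaling, filterByExpr at a minimum count of 10, 1 fit of 8 groups, quasi-likelihood tests and Benjamini-Hochberg adjustment over 21689 genes. Values after ± are SE. A gene was called at an adjusted p under 0.05 and a fold over 1.5. DESeq2 1.42.0, other scalings, a replicate block and libraries left out served as alternatives. The steps were tested on simulated data. For the fit, these had the same extra spread for every gene and no outlying library, unlike the libraries here, so they do not test the effect of replicate 1. Replicates are separate pools of seedlings. Genes named were the 10 of highest index, the 25 with a symbol, the 10 of smallest adjusted p among those called, and the 2 at the rank limit. Others are marked as named after their values were seen. Over all genes, pairs of replicates differed by more than counting error, with chi-square over its degrees of freedom from 2.57 to 141. For single genes of a few CPM counting error can be as large as the spread of replicates, and it was not set apart. A further marker gene is not reported here.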

Additional observations from a re-analysis of the deposited data

How the results depend on the processing

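The 100 genes were an unstable selection. Of the 100 genes 56 were taken again from Dex libraries only, 46 from Mock libraries only and 48 with medians in place of means. Leaving out 1 replicate number kept 59 to 66 and leaving out 1 library 55 to 95, the lowest without Mock replicate 1 of 6 h. Without Mock replicate 3 of 4 h 86 were kept. In the highest 100 of Dex alone and of Mock alone were 21 genes, among them *CYP94B1*, *TT4*, *MYB29*, *4CL3* and *GA4*. TMM scaling kept 89, pseudocounts of 0.25 and 5 CPM kept 85 and 68, a minimum of 5 CPM 79, no level limit 92 and no limit on the Mock difference 85. TMM scaling moved the index of all genes by a median of -0.072. The median index of the 100 genes, which the choice of genes holds above 0, was 0.33 to 0.52 under all of these and 0.39 to 0.47 with 1 library left out.

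The count of 44 called genes (2962 of all genes) was 46 by DESeq2, 44 with RLE size factors, 41 with no count filter and 38 with a replicate block. Over all genes these 4 settings called 3197, 2984, 2988 and 2812. With 1 replicate number left out it was 0 to 51 by edgeR (2 without replicate 1, 0 without replicate 3) and 9 to 54 by DESeq2, a setting added after the data were seen (9 without replicate 1, 34 without replicate 3). With 1 library left out it was 33 to 49, and 2103 to 3493 over all genes. Fits without a replicate number hold fewer samples. DESeq2 called 3 genes at 2 h and 4 at 8 h where edgeR called 0, and with 1 library left out edgeR called 0 to 4 at 2 h and 0 to 2 at 8 h. The 4 stood beside 260 of all genes and the 2 beside 169. With 1 replicate number left out the log2 fold change changed sign for 4 of the genes named in the text: it ran from -0.50 to 0.10 for CARHR107160 (0.10 without replicate 1), from -0.035 to 1.32 for *MYB76*, CARHR205450 (-0.035 without replicate 1), from -0.042 to 0.35 for CARHR098700 (-0.042 without replicate 2), and from -0.044 to 0.032 for CARHR006260 (0.032 without replicate 1). The main fit did not pair samples by replicate number. Deviations of same-numbered Dex and Mock libraries from their group means had correlations of -0.59 to 0.14. With 3 libraries in each mean, these values cannot tell whether same-numbered pools shared a day, and the labels do not say. For differently numbered libraries of 1 time the correlations were -0.53 to 0.61.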
